A study of Mus musculus and Homo sapiens with 16 samples.

Results

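Of 6433 KLF5 peaks in mouse skin epithelium at E17.5, late in gestation, 1138 lay in open chromatin that carried no H3K27ac peak. They were chosen by overlap between deposited peak lists. Each shared at least 1 bp with an ATAC-seq peak, a stretch of accessible chromatin, and no base with a peak of H3K27ac, the acetylated histone of active promoters and enhancers. The membership therefore rests on the measured peaks themselves, and every comparison of the 1138 regions in those 3 assays is a description with no test. KLF5 is a zinc-finger transcription factor of epithelia that binds GC-rich DNA of the CACCC and GC-box kind. A factor can occupy accessible DNA without the local histones being acetylated, and such sites are often described as poised, weakly active or bound by repressors; which of these applies was not measured.

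The chromatin came from 1 library for each assay, all from C57BL/6 embryonic skin epithelium, sorted for integrin alpha 6, a surface protein of basal keratinocytes, after dead cells (DAPI) and leukocytes (CD45) were gated out. The KLF5 and H3K27ac libraries are labelled wild type, and so is the ATAC library, although its title says Het. RNA was counted in 3 libraries labelled Klf5-/- and 3 labelled Klf5+/- from E17.5 epithelium sorted in the same way. A further set carries the letters HFD in its titles, which the labels do not expand, and held 2 libraries labelled Klf5-/- and 2 labelled Klf5+/- of unsorted epidermis ground in liquid nitrogen, with no stage given. No source used here gives the deleted part of Klf5, the promoter of any Cre or the animals behind a library. Total counts on genes ran from 31819010 to 46445546. Klf5 transcripts were not lower in the libraries labelled Klf5-/-: 197, 177 and 174 CPM (counts scaled to library size) against 181, 199 and 163 CPM in Klf5+/- at E17.5, and 110 ± 13.1 CPM against 52.8 ± 14.1 CPM in the HFD set (SD, n = 2 each), a log2 difference of 1.06 with an edgeR adjusted p of 0.0533. A whole-gene count cannot show whether a part of Klf5 is missing, so each genotype direction below rests on the labels alone. Markers of basal keratinocytes summed to 24600 to 29992 CPM in the E17.5 libraries labelled Klf5-/- and 22033 to 26523 CPM in Klf5+/-, and all 7 of them were detected. Suprabasal markers summed higher than the basal ones there, to 33082 to 49333 CPM in the libraries labelled Klf5-/- and 57336 to 70283 CPM in Klf5+/-. Endothelial markers summed to at most 2.80 CPM at E17.5, and fibroblast markers to at most 677 CPM. Melanocyte markers reached 412 CPM. Erythroid markers ran from 86.2 to 946 CPM in the libraries labelled Klf5-/- and from 5.30 to 329 CPM in Klf5+/-.

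The regions that lie at transcription starts show what the sequence under such a peak looks like. Promoter sequences from RefSeq (GRCm38.p6, the build of the files, mm10) hold the bases around each annotated start, 250 before it and 50 after it, and 79 of the 1138 regions had their KLF5 summit inside 88 such windows. Shown here are the 6 of highest KLF5 fold among them, to show what they share, and 2 chosen because their gene is on a list of barrier or signalling genes. Each line gives 121 bases of the window's strand, 5′ to 3′, around the KLF5 summit, and capitals mark every match to the KLF/SP motif CCNCNCCC on either strand.
Radil (chr5:142551154-142551274, minus strand): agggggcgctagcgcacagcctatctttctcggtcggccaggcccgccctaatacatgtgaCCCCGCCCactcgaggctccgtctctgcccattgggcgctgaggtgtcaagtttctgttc
Acap2 (chr16:31201262-31201382, minus strand): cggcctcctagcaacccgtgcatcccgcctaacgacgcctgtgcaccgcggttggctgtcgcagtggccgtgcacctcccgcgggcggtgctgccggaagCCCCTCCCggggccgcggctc
Gm5724 (chr6:141778249-141778369, minus strand): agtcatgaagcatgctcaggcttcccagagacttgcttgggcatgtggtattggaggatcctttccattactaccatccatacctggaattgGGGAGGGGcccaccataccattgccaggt
Fam110c (chr12:31073760-31073880, plus strand): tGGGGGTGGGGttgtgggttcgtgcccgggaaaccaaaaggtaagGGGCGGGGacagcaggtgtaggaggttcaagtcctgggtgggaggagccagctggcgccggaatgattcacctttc
Eps8l1 (chr7:4464514-4464634, plus strand): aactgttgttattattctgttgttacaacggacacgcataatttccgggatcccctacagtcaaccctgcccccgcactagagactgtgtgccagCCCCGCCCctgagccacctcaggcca
Pof1b (chrX:112698678-112698798, minus strand): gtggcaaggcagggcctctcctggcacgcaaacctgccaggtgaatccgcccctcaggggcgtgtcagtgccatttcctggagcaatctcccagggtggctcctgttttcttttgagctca
Slc27a4 (chr2:29802495-29802615, plus strand): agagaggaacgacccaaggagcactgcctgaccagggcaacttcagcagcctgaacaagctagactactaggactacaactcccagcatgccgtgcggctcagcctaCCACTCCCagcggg
Notch1 (chr2:26503942-26504062, minus strand): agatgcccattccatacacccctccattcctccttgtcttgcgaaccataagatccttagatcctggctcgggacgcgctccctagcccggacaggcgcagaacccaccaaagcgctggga
Radil encodes a Ras-associating adaptor of cell adhesion, and its KLF5 summit at base 61 of the line was directly followed by a GC box. In Fam110c 3 matches lay within the printed stretch. In Acap2, Gm5724, Eps8l1 and Slc27a4, the last encoding a fatty acid transport protein of epidermal lipid synthesis, there was 1 match each. Pof1b, an actin-binding protein gene of epithelial junctions, had none here or in its whole window. The Notch1 stretch held no match, though 2 lay elsewhere in its window. That window belongs to a RefSeq transcript start inside the gene, since the summit lay 12661 bp into Notch1 from its first start, and Notch1 encodes a receptor of epidermal differentiation.

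Over the 88 windows, 88.6% held the KLF/SP motif (78 windows, 95% Wilson interval 80.3 to 93.7%). Among windows at the KLF5 summits of open, H3K27ac-marked promoters it was 84.2% of 1610, and among all 32815 distinct RefSeq windows 49.5%. The motif is rich in G and C, and the windows were not matched for base content. Median GC was 60.7% without H3K27ac, 64.7% at the H3K27ac-marked promoters and 52.7% over all. The ETS motif CCGGAA, a common element of housekeeping promoters, was in 18.2% (11.5 to 27.5%) of the windows without H3K27ac. That compares with 33.0% (30.8 to 35.4%) of those at H3K27ac-marked promoters and 14.9% of all. The AP-1 motif TGANTCA was in 7.95% (3.91 to 15.5%), against 4.91% and 7.81%. The CRE motif TGACGTCA was in none of the 88, which allows up to 4.18%. It was in 6.21% of the windows at H3K27ac-marked promoters and in 1.79% of all, which lies inside that limit. The median ratio of observed to expected CpG was 0.691 without H3K27ac, 0.857 at H3K27ac-marked promoters and 0.383 over all windows. That puts the windows without H3K27ac between the other two. A further 155 windows held summits of H3K27ac-marked KLF5 peaks over 1 kb from every protein-coding start. They were nearer to the 88, with KLF/SP in 85.8%, ETS in 23.2% (17.3 to 30.5%) and a CpG ratio of 0.769. CRE was in 4.52% (2.2 to 9.03%) of them. Their ETS and CRE intervals overlap those of the 88. All motifs were searched on both strands, and a match is not evidence of a bound site. The intervals cover counting error only and treat the windows as independent, although some share a KLF5 summit. Regions away from transcription starts have no sequence here, because no genome was used.

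As peaks the 1138 regions were modest. Their median KLF5 fold enrichment at the summit, a ratio over the peak caller's local background, was 3.83 (quartiles 3.50 and 4.21, maximum 7.84). That set them beside the 858 KLF5 peaks outside ATAC peaks (median 3.82) and under the open peaks with H3K27ac, at 4.10 for the 2235 near gene starts and 4.10 for the 2202 elsewhere, whose maximum was 18.9. Their median width was 284 bp, against 343 bp and 385 bp for the 2 acetylated classes. The ATAC peaks they overlapped had a median fold of 6.08 and a width of 521 bp, below the 8.26 and 958 bp under acetylated promoters and the 6.84 and 634 bp at acetylated distal sites. ATAC peaks with neither H3K27ac nor KLF5 had a median fold of 4.98 and a width of 388 bp. A KLF5 summit lay inside the ATAC peak in 1026 of the regions (90.2%) and within 100 bp of the ATAC summit in 587 (51.6%), close to the 48.1% at acetylated distal sites. All these values come from single libraries.

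**Figure D1:**
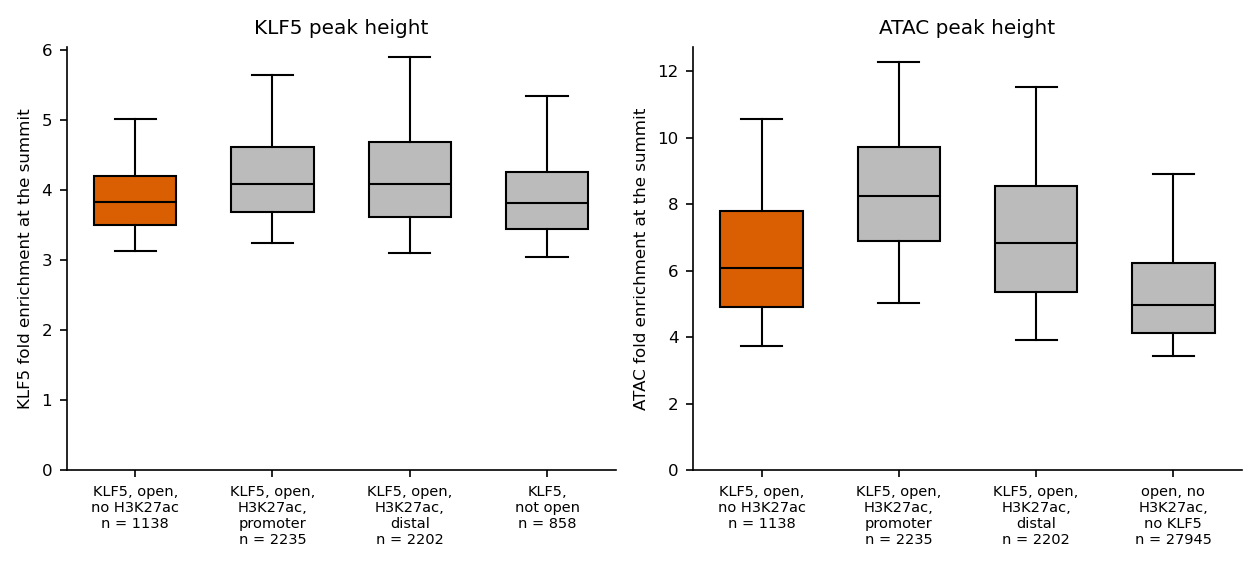
KLF5 fold enrichment by class of KLF5 peak (left) and ATAC fold enrichment by class (right); boxes span the quartiles with the median as a line, and whiskers run from the 5th to the 95th percentile of the peaks. The median of the open KLF5 peaks without H3K27ac is 3.83 on the left, under the 4.10 of both acetylated classes, and 6.08 on the right, between the acetylated classes and the 4.98 of ATAC peaks with neither mark.

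Fewer of the higher open KLF5 peaks lacked H3K27ac. In equal bins of open KLF5 peaks from lowest to highest KLF5 fold, 372 of 1394, 361 of 1394, 264 of 1393 and 141 of 1394 had no H3K27ac peak. In bins of ATAC fold the share was 35.4, 21.8, 13.3 and 11.1%. By position, 31.4% of the 3210 open KLF5 peaks over 1 kb from every protein-coding start lacked the mark, and 5.50% of the 2365 within 1 kb.

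Because the rule turns on single bases, its edges are given once. A region nearest to Rnf186 shared 1 bp with an ATAC peak, one nearest to Chd3 shared 2 bp, and one nearest to Bcl9l abutted an H3K27ac peak with no base between. Just outside, a KLF5 peak near Nbeal2 shared 1 bp with H3K27ac, and peaks near Tstd1 and Lrig1 missed an ATAC peak by 2 bp. In all, 20 regions had 50 bp or less of ATAC overlap and 38 had an H3K27ac peak within 200 bp, while 26 open KLF5 peaks were left out for an H3K27ac overlap of 50 bp or less.

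Most of the regions were distal. Only 130 (11.4%) had their summit within 1 kb of a protein-coding start, 216 lay at 1 to 10 kb, 412 at 10 to 50 kb, 164 at 50 to 100 kb and 216 beyond 100 kb. Of the 1008 farther than 1 kb, 499 were inside the span of a gene and 509 between genes; exons and introns could not be separated. The 130 at starts had a median KLF5 fold of 3.82, against 3.83 for the rest, and a higher ATAC fold of 7.05, against 5.96. Chromosomes 1 to 19 held 25 to 92 of the 1138 regions each, X 8 and Y 1.

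Acetylated chromatin lay closer to the regions than to other ATAC peaks without H3K27ac. Most of the regions still had no H3K27ac peak within 10 kb. The median gap to the closest H3K27ac peak was 18637 bp, against 35958 bp for the 27945 ATAC peaks with neither H3K27ac nor KLF5. Within 10 kb, 34.9% of the regions and 21.6% of those ATAC peaks had an H3K27ac peak, and 25.2% and 42.0% had none within 50 kb. Within 1 kb, 96 regions (8.44%) had an H3K27ac peak, as did 1022 of those ATAC peaks (3.66%).

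**Figure D2:**
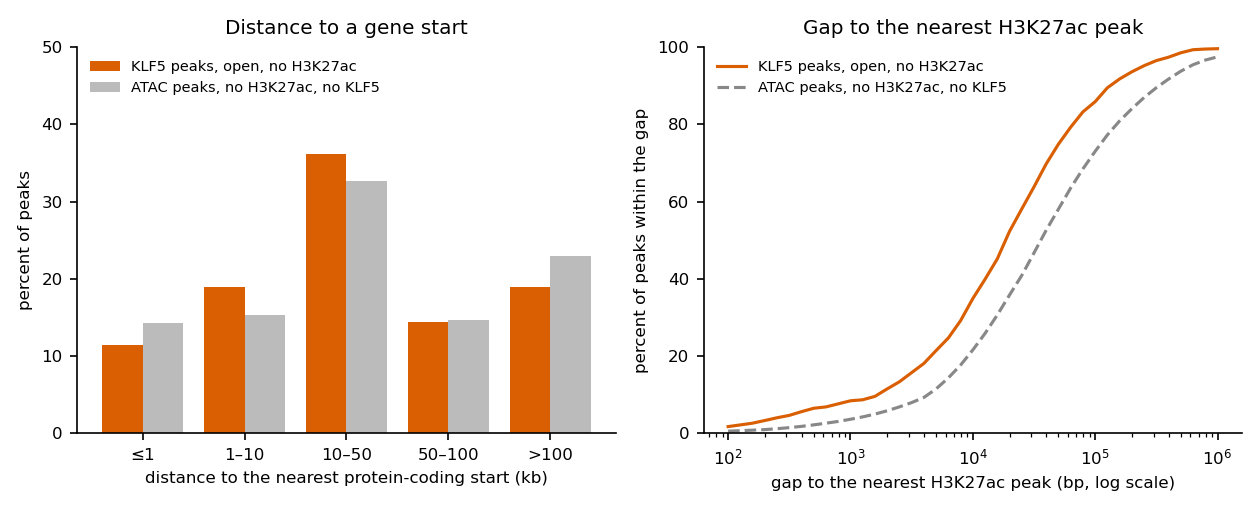
Left, percent of peaks by distance of the summit to the nearest protein-coding start, in kb; right, cumulative percent of peaks by the gap to the nearest H3K27ac peak, in bp on a log scale, for open KLF5 peaks without H3K27ac and for ATAC peaks with neither. The KLF5 regions hold 36.2% of their peaks at 10 to 50 kb, and their curve lies left of the other, with 34.9% against 21.6% within 10 kb.

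Of the genes nearest to the 12 highest KLF5 peaks of the set, 5 were at 1 RPKM or more (counts per kilobase of exon, scaled to library size) in this epithelium and 7 were not. The first, chr10:61233153-61233866 with a fold of 7.84 and a −log10 q of 35.9, lay inside Adamts14, a procollagen-processing protease, 39890 bp from its start. Adamts14 was transcribed at 11.1, 7.65 and 6.97 RPKM in the 3 Klf5+/- libraries. The second, with a fold of 7.48, lay 262883 bp from Mc2r, the ACTH receptor gene, which had 0.0414 RPKM in 1 library and no counts in the other two. The next 5 were nearest to Tmem130, 1700065I17Rik, Vmn1r77, Gm20812 and the homeobox gene Lhx1, all between 0 and 0.224 RPKM in every library. Gli2, a transcription factor of the Hedgehog pathway that drives hair follicle growth, held the eighth at 6.11, 179836 bp into the gene, and was transcribed at 14.9, 10.2 and 8.25 RPKM. Below it stood Dab2ip, a Ras GTPase-activating protein gene at 14.8 ± 2.44 RPKM (SD, n = 3), A1bg at 0.0386 RPKM, and Ogdhl at 3.33 RPKM. Between them came Rpl13, a ribosomal protein gene at 599 ± 27.8 RPKM, whose region had a fold of 6.07 and lay 1857 bp upstream of its start and 1529 bp from an H3K27ac peak.

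The 1138 regions had 1025 different nearest genes, of which 922 had 1 region and 8 had 3 or more. Arid1b, a subunit gene of the BAF chromatin remodeller, and the translation factor gene Eif3h had 4 each. Arhgef19, the AP-1 gene Fosl2, the placode and hair factor gene Gata3, Pde4d, Sox4 and the demethylase gene Tet3 had 3 each. Gata3 also had 4 KLF5 peaks with H3K27ac and Arid1b had 5, while Arhgef19 had none. Of the 1025 genes, 359 (35.0%) were also nearest to an acetylated KLF5 peak. A microRNA gene of keratinocytes lay near one region as well, picked out after the values were seen. The Mir205 hairpin was 4644 bp from a region with a KLF5 fold of 3.08 and a gap of 1374 bp to H3K27ac, and its product was not measured. Its guide strand from RefSeq, with the seed (bases 2 to 8) in capitals, is as follows.
mmu-miR-205-5p: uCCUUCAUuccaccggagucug

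Linked genes were the nearest genes whose start lay within 50 kb of the summit, 707 in all. At a mean of 1 RPKM or more in the Klf5+/- libraries stood 514 (72.7%), and the share was 74.3, 73.0 and 72.4% in the single libraries. The shares were 72.2% of 540 genes linked to KLF5 peaks outside ATAC, 95.7% of 2177 genes linked to acetylated KLF5 promoters, 78.8% of 1314 linked to acetylated distal KLF5 peaks, 56.7% of 9754 linked to ATAC peaks with neither mark, and 50.6% of all 21111 protein-coding genes. The median level was 6.63 RPKM for the 707 genes, 5.76 RPKM for KLF5 peaks outside ATAC, 12.9 and 8.96 RPKM for the acetylated promoter and distal classes, 2.07 RPKM for ATAC peaks with neither mark and 1.09 RPKM over all. Of the 707, 194 (27.4%) were also linked to an acetylated KLF5 peak, which is 5.90% of the 3288 genes so linked. An H3K27ac peak lay within 1 kb of the gene's own start in 40.6% of the 707 and in 46.2% of the 587 reached by a distal region, against 52.5% for acetylated distal peaks and 39.8% of all protein-coding genes. Genes whose region lay within 1 kb of the start were lower, with 87 of 128 (68.0%) at 1 RPKM or more and a median of 3.85 RPKM, against 73.7% of 579 and 7.59 RPKM for the genes with distal regions only.

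**Figure D3:**
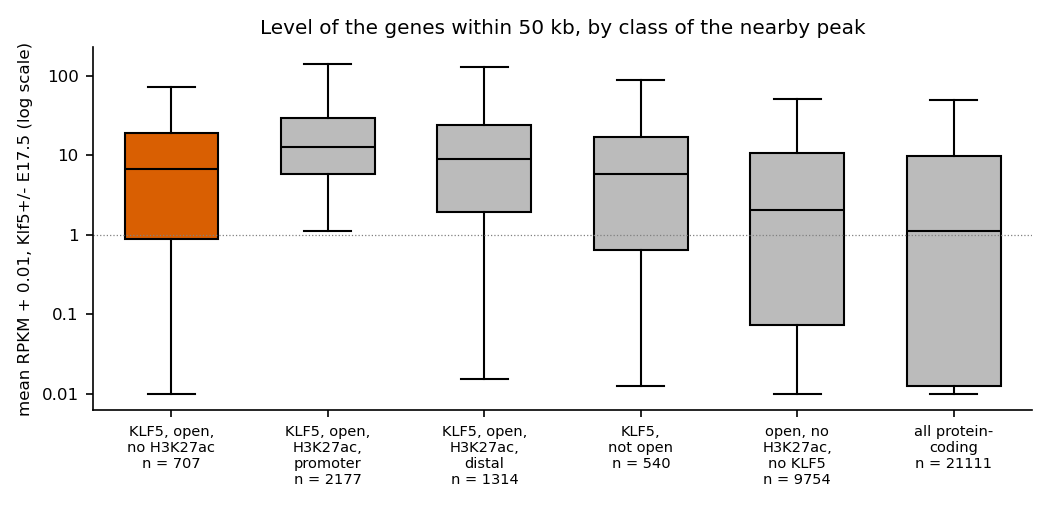
Mean level in the 3 Klf5+/- E17.5 libraries, in RPKM plus 0.01 on a log scale, of the genes linked to each class of peak; boxes span the quartiles with the median as a line, whiskers run from the 5th to the 95th percentile, and the dotted line marks 1 RPKM. The median of the genes linked to open KLF5 peaks without H3K27ac is 6.63 RPKM, between the 12.9 and 8.96 RPKM of the acetylated classes and the 2.07 RPKM of ATAC peaks with neither mark.

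Strongly transcribed genes of the epidermis were among the linked genes, though few. At a mean of 100 RPKM or more stood 22 of the 707 (3.11%), against 2.30% of all protein-coding genes. For genes linked to KLF5 peaks outside ATAC the share was 4.44%. In the acetylated promoter and distal classes it was 7.58 and 6.77%. Krt1, the type II keratin that marks the first suprabasal layer, had the highest level of all linked genes, at 15163, 15541 and 12567 RPKM, and its region (chr15:101855714-101855935, KLF5 fold 3.10) lay 4986 bp upstream with the closest H3K27ac peak 32995 bp away. Krt15, a basal keratin, stood at 1544 ± 98.9 RPKM (SD, n = 3) with a region 145 bp upstream of its start and H3K27ac 20848 bp away. Ptma, Rpl13 and Gapdh, which every cell uses, stood at 2436, 599 and 475 RPKM.

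At E17.5 no linked gene passed the test between the genotypes. With edgeR's quasi-likelihood test, 0 of the 618 linked genes that passed a filter on low counts had an adjusted p under 0.05, and 89 were not tested. Over all 15092 genes 0.0861% passed. At an unadjusted edgeR p under 0.05 stood 119 linked genes (19.3%), 93 lower and 26 higher in the libraries labelled Klf5-/-. Of all genes 10.0% did, 941 lower and 571 higher. The share was 16.3% for acetylated distal KLF5 peaks (153 lower, 38 higher) and 16.0% for KLF5 peaks outside ATAC (55 and 20). It was 13.8% for ATAC peaks with neither mark (666 and 333) and 8.16% for acetylated promoters (121 and 55). No difference between these classes was tested. The median log2 fold change (Klf5-/- over Klf5+/-) of the linked genes was −0.0045 and that of all genes 0.012. DESeq2 called 43 linked genes (6.96%), 34 lower and 9 higher, where it called 3.03% of all genes, and limma-voom called 0. The count in edgeR moved with the filter and with 1 library. Without the low-count filter 22 linked genes passed (3.25%), with 1.02% of all genes. Without the library labelled Klf5-/- number 3 it was 52 (8.35%), with 3.31% of all genes. Markers of suprabasal keratinocytes were at 33082 to 49333 CPM in the libraries labelled Klf5-/- and 57336 to 70283 CPM in Klf5+/-, with 7 of 7 below 0 and none called. Fibroblast markers were above 0 in 6 of 6, at 618 to 677 CPM and 417 to 558 CPM. Their part in the result was not tested, and in bulk samples fewer cells of a type and less RNA per cell cannot be told apart.

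Closest to the threshold, chosen after the values were seen, were Ptgs1 and Aox4. Ptgs1, the cyclooxygenase that makes prostaglandins in resting tissue, had 65.4, 66.0 and 86.8 CPM in the libraries labelled Klf5-/- and 135, 128 and 111 CPM in Klf5+/- (log2 fold change −0.78, SE 0.12, edgeR adjusted p = 0.0557). Aox4, an aldehyde oxidase that acts on retinal, had 72.9, 62.3 and 83.4 CPM and 142, 126 and 109 CPM (−0.79, SE 0.13, edgeR adjusted p = 0.0566). In both genes the libraries of the 2 genotypes did not overlap. The region of Ptgs1 lay 3186 bp upstream of its start (KLF5 fold 3.51) and that of Aox4 5893 bp into the gene (4.02), with H3K27ac 18672 bp and 5628 bp away.

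In the HFD set 55 of 632 linked genes passed (8.70%), where 5.50% of all 15848 genes did. Genes linked to ATAC peaks with neither mark passed in 7.44%, to KLF5 peaks outside ATAC in 7.05% and to acetylated distal KLF5 peaks in 6.19%, and no difference between these classes was tested. In the libraries labelled Klf5-/-, 25 rose (3.96%, against 1.48% of all genes) and 30 fell (4.75%, against 4.02%). Genes with a region within 1 kb of the start accounted for 14 of the 55, with 5 higher and 9 lower among 119 tested. The median log2 fold change of the linked genes was 0.12 and that of all genes −0.01. The calls needed both Klf5+/- libraries: without number 1 of them 1 linked gene passed edgeR, among 36 genes in all, and without number 2 none did, among 19. Without either library labelled Klf5-/- more genes passed, among all genes as well as the linked ones, with 1 library left in that group. The folds of named genes kept their sign but moved by unlike amounts. The log2 fold change of Bmpr1b was 1.49 without Klf5+/- number 1 and 1.48 without number 2, and that of Fzd1 −1.42 and −1.32. That of Gda was −2.81 and −1.95, and that of Eps8l1 0.93 and 1.41. Markers of other cell types differed between the genotypes too. Fibroblast markers summed to 635 and 4002 CPM in the libraries labelled Klf5-/- and 16887 and 20307 CPM in Klf5+/-, with all 6 lower. Endothelial markers summed to 10.3 and 43.3 CPM, against 268 and 304 CPM, with 2 of 4 called lower, and erythroid markers to 105 and 142 CPM, against 302 and 365 CPM. Suprabasal markers summed to 45737 and 50840 CPM, against 25783 and 26144 CPM, with 7 of 7 above 0 and 1 called. The part of these differences in the calls was not tested.

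The 8 largest changes among the called genes were all falls. In none of the 55 called linked genes did the libraries of the 2 genotypes overlap, so non-overlap adds nothing to a call. Radil, whose promoter is printed above, had 8 and 3 counts in the libraries labelled Klf5-/- and 124 and 137 in Klf5+/- (log2 fold change −4.34, SE 0.71, edgeR adjusted p = 0.0380). Its region covered the start, with a KLF5 fold of 5.21 and the closest H3K27ac peak 77267 bp away. Cilp and Prelp, matrix proteins of connective tissue, had 33 and 9 counts against 413 and 331, and 58 and 25 against 445 and 560 (−3.88 and −3.37). Galnt5, a glycosyltransferase of mucin-type sugars, had 2 and 5 counts against 43 and 48 (−3.57), and the neuronal adaptor gene Apba1 12 and 10 against 89 and 122 (−3.09). The regions of these 4 genes lay 547 to 29128 bp from the start. Gpihbp1, which carries lipoprotein lipase to the wall of capillaries, had 8.70 and 3.60 CPM against 34.0 and 43.0 CPM (−2.65, SE 0.45, edgeR adjusted p = 0.0410). Gda, guanine deaminase, had 3.12 and 1.57 CPM against 9.03 and 16.4 CPM (−2.45), and the sorting nexin gene Snx24 1.54 and 1.35 CPM against 5.43 and 8.35 CPM (−2.25). The regions of Gpihbp1 and Gda lay within 1 kb downstream of the start, at 931 and 783 bp, and that of Snx24 at 4574 bp.

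Other calls are named after their values were seen. Among those that fell, Thy1, a fibroblast surface protein, had 40.6 and 33.3 CPM in the libraries labelled Klf5-/- and 138 and 157 CPM in Klf5+/- (edgeR adjusted p = 0.0320). Col4a2, a collagen IV chain, had 78.5 and 49.5 CPM against 271 and 242 CPM, and the laminin chain gene Lamb1 76.6 and 40.2 CPM against 205 and 243 CPM (log2 fold change −1.94). P4ha2, a collagen prolyl hydroxylase, had 15.7 and 14.0 CPM against 39.5 and 56.0 CPM (−1.69), and its region, beyond the end of the gene, had a KLF5 fold of 5.51 and lay 143 bp from an H3K27ac peak. Among those that rose, Clic3, a chloride channel family gene, had 150 and 139 CPM against 45.7 and 57.8 CPM (1.48, SE 0.19, edgeR adjusted p = 0.0337), with a region 186 bp upstream. Hspb1, a small heat shock protein of differentiating keratinocytes, had 759 and 1017 CPM against 327 and 304 CPM (1.49). Eps8l1, an actin regulator whose promoter is printed above, had 104 and 117 CPM against 41.4 and 58.1 CPM (1.15), and Rab38, a small GTPase of pigment and lamellar granule transport, 165 and 194 CPM against 79.7 and 78.8 CPM (1.18).

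**Figure D4:**
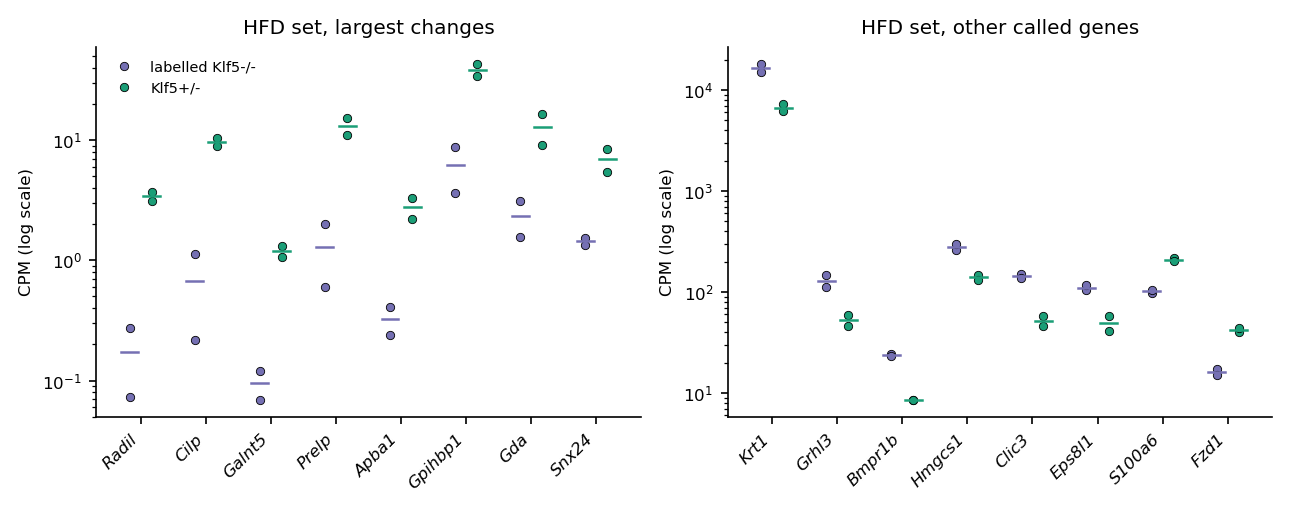
Level of called linked genes in each HFD library, in CPM on a log scale, with libraries labelled Klf5-/- left of Klf5+/-; points are libraries (2 a group) and lines are means. Left, the 8 largest changes, all lower in the libraries labelled Klf5-/-; right, 8 other called genes, of which Krt1, Grhl3, Bmpr1b, Hmgcs1, Clic3 and Eps8l1 are higher and S100a6 and Fzd1 lower.

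Lists of barrier and developmental genes, chosen with earlier results of these data known, are described next. Of their 546 protein-coding gene IDs 55 were linked (10.1%), against 3.35% of all 21111. At E17.5, 0 of the 53 tested passed in edgeR, with 25 above 0 and 28 below. In the HFD set 4 of 53 rose and 2 fell, where 1.48% of all genes rose and 4.02% fell. There 41 of the 53 lay above 0, as did 367 of the 632 linked genes and 7839 of all 15848.

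Ceramides are the main lipids of the skin barrier, and 5 of 45 sphingolipid genes were linked. Smpd3 encodes a neutral sphingomyelinase, Degs2 a desaturase and hydroxylase of phytoceramides, and Acer2 and Asah2 ceramidases. The regions of these genes had KLF5 folds of 4.26, 3.69, 3.65 and 3.49. None of the 5 passed edgeR in either set, with 4 above 0 in the HFD set and 3 below 0 at E17.5. Smpd3 had 99.1 and 111 CPM in the HFD libraries labelled Klf5-/- and 46.0 and 62.1 CPM in Klf5+/- (0.96, SE 0.20, edgeR adjusted p = 0.0516). It passed there under RLE scaling, limma-voom, no low-count filter and DESeq2 (adjusted p = 0.0475, 0.0278, 0.00306 and 0.000821). Asah2 passed in the HFD set under limma-voom, no filter and DESeq2 (0.0491, 0.0152 and 0.0114) and at E17.5 under no filter and DESeq2 (0.00266 and 0.000544). Degs2 had 26.0 and 52.0 CPM against 15.8 and 8.21 CPM (1.70, edgeR adjusted p = 0.0914). Smpd3 and Degs2 were near the threshold of expression at E17.5. In Klf5+/- they stood at 0.937 ± 0.326 and 1.12 ± 0.394 RPKM (SD, n = 3). Acer2 was at 1.48 ± 0.120 RPKM and Asah2 at 7.98 ± 0.557 RPKM. Of the acylceramide genes 1 of 25 was linked, Slc27a4. It had 66.1, 59.1 and 59.6 CPM in the E17.5 libraries labelled Klf5-/- and 85.8, 79.7 and 66.0 CPM in Klf5+/- (−0.33, edgeR adjusted p = 0.287), and was at 0.64 in the HFD set (SE 0.16, edgeR adjusted p = 0.0653).

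Of 39 cornified envelope and suprabasal genes 3 were linked: Tgm1, the transglutaminase that cross-links the envelope, its substrate gene Ivl, and Krt1. All 3 lay below 0 at E17.5 and above 0 in the HFD set, where Krt1 rose. Krt1 had 18037, 15272 and 25671 CPM in the E17.5 libraries labelled Klf5-/- and 37015, 39772 and 31182 CPM in Klf5+/- (log2 fold change −0.87, SE 0.19, edgeR adjusted p = 0.119). HFD libraries labelled Klf5-/- had 15215 and 18211 CPM, against 6140 and 7286 CPM in Klf5+/- (1.32, SE 0.27, edgeR adjusted p = 0.0499). Tgm1 stood at −0.43 at E17.5 and 1.16 in the HFD set (edgeR adjusted p = 0.173 and 0.102), and Ivl at −0.54 and 0.72 (0.127 and 0.261). The HFD value of Ivl turned on 1 library, being 0.14 without the library labelled Klf5-/- number 1 and 1.18 without number 2 (edgeR adjusted p = 0.658 and 0.000398). The region of Tgm1 had a KLF5 fold of 4.91 and lay 1347 bp upstream, and that of Ivl a fold of 3.58 at 5804 bp upstream.

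**Figure D5:**
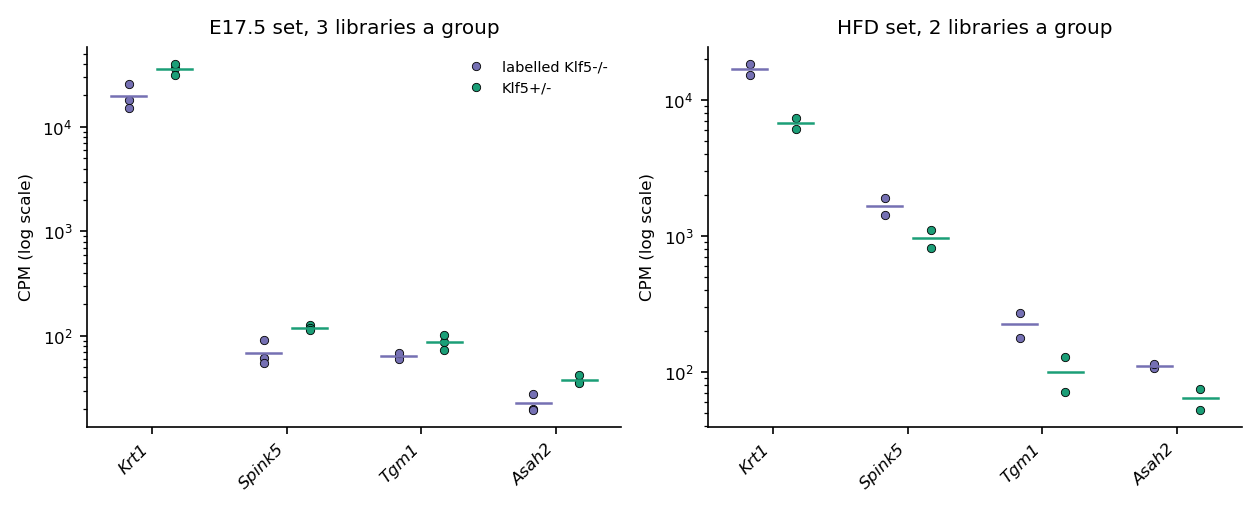
Level in each library, in CPM on a log scale, of Krt1, Spink5, Tgm1 and Asah2, chosen for this pattern after their values were seen, in the E17.5 set (left) and the HFD set (right), with libraries labelled Klf5-/- left of Klf5+/-; points are libraries and lines are means. In these 4 the libraries labelled Klf5-/- lie under every Klf5+/- library at E17.5 and above every one in the HFD set; Krt1 in the HFD set is the single one that passed the test.

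Over all linked genes both patterns occurred. Among the 606 linked genes tested in both sets, 114 (18.8%) lay lower at E17.5 and higher in the HFD set without overlap, against 10.7% of all 14106 genes tested in both. The other way round lay 50 (8.25%, against 9.29%), lower in both 26 (4.29%, against 3.62%) and higher in both 26 (4.29%, against 4.60%). Overlap alone decided these counts, and no difference between the sets was tested.

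Basal and adhesion genes contributed 4 of 34: Lama3, a chain of laminin 332 (KLF5 fold 5.51), the cadherin gene Cdh3 (3.71), the tight junction gene Cldn1 (3.50) and Krt15. They stood at 23.1, 35.0, 48.9 and 1544 RPKM in Klf5+/- E17.5 epithelium and none passed in either set. Epidermal transcription factors contributed 7 of 58, all at 1 RPKM or more: Grhl1, Grhl2 and Grhl3, grainyhead-like factors of barrier formation, with Cebpa, Sox4, Tead1 and Zfp750. Their levels ran from 4.24 RPKM for Tead1 to 113 ± 11.2 RPKM for Cebpa (SD, n = 3). Grhl3 was the 1 gene of this list that passed, rising in the HFD set to 111 and 146 CPM in the libraries labelled Klf5-/-, against 45.9 and 59.4 CPM in Klf5+/- (1.29, SE 0.22, edgeR adjusted p = 0.0390). Its region lay 49762 bp upstream, just inside the limit of 50 kb. Of 18 AP-1 and immediate early genes, which respond to handling and growth factors, Fosb, Egr3 and Fosl2 were linked and none passed; Fosb varied from 1.24 to 7.48 RPKM between the 3 Klf5+/- libraries.

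Signalling genes were the largest group, with 13 of 72 linked through 16 regions and all 13 at 1 RPKM or more (7.29 to 71.2 RPKM). The Wnt pathway was present as ligands Wnt7b, Wnt10a and Wnt3 and receptors Fzd1 and Fzd10, the Hedgehog pathway as the effectors Gli1 and Gli2. Bmp2 and its receptor Bmpr1b, Fgfr3, Notch1 and the EGF receptor inhibitor gene Lrig1 were also linked. Within 50 kb the highest KLF5 folds were those of Gli2 (4.82, 11922 bp upstream), Wnt7b (4.70, 37221 bp into the gene) and Fzd1 (3.97, 9945 bp upstream). Fgfr3 and Gli1 had their H3K27ac peak at 36 and 180 bp, and that of Bmp2 was 150400 bp away. None passed at E17.5. In the HFD set Bmpr1b rose, with 24.2 and 23.4 CPM in the libraries labelled Klf5-/- and 8.51 and 8.46 CPM in Klf5+/- (1.49, SE 0.21, edgeR adjusted p = 0.0338). Fzd1 fell, with 17.3 and 15.0 CPM against 40.3 and 43.5 CPM (−1.37, SE 0.19, edgeR adjusted p = 0.0338). Both pairs were tight, and the 2 genotypes did not overlap, as in all 55 called linked genes.

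Of 135 developmental patterning genes 5 were linked, 3.73% of the protein-coding ones and near the 3.35% of all genes. Irx4 was transcribed, at 56.3, 42.7 and 40.4 RPKM in the Klf5+/- libraries. Lhx1, Gata2, Tbx1 and Isl2 stood between 0 and 0.523 RPKM in every one of them. Lhx1 and Isl2 were not tested in either set, and the other 3 did not pass.

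Barrier defence genes and stress keratins contributed 7 of 46. Krt8, a keratin of simple epithelia and periderm, had a region with a KLF5 fold of 6.00 (ATAC fold 8.33, 1375 bp upstream) and 11.6, 14.7 and 19.2 RPKM. S100a10 had 305 ± 51.0 RPKM (SD, n = 3) and a region with a KLF5 fold of 4.09. S100a6, a calcium-binding protein of the same family, was the 1 of 7 that passed, falling in the HFD set to 2878 and 4316 counts in the libraries labelled Klf5-/-, against 8667 and 7385 counts in Klf5+/- (−1.04, SE 0.16, edgeR adjusted p = 0.0371). Spink5, the inhibitor of epidermal kallikreins, had a region 4703 bp into the gene with the closest H3K27ac peak 412095 bp away. It had 61.0, 54.8 and 90.8 CPM in the E17.5 libraries labelled Klf5-/- and 127, 118 and 114 CPM in Klf5+/- (−0.80, edgeR adjusted p = 0.127). Of 45 cholesterol, fatty acid and triglyceride genes 5 were linked, Agpat3, Agpat4, Hmgcs1, Srebf1 and Lpin2. Hmgcs1, the enzyme that feeds the mevalonate pathway, rose in the HFD set to 258 and 300 CPM in the libraries labelled Klf5-/-, against 148 and 132 CPM in Klf5+/- (0.99, SE 0.18, edgeR adjusted p = 0.0415). The region of Hmgcs1 lay 5447 bp into the gene and 5192 bp from H3K27ac. Cell cycle genes contributed 2 of 36, E2f7 and the inhibitor gene Cdkn1c, at 2.85 and 16.0 RPKM, and neither passed.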

How the data were processed

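Raw counts per Ensembl gene were deposited for 10 RNA libraries. STAR 2.6.0b and HTSeq with mm10 (GRCm38) are named in the submitters' processing notes. The RPKM values deposited beside the HFD counts were not tested; E17.5 RPKM were computed from the counts and the exon lengths in those tables. For peaks, the same notes list MACS2, Bowtie 1.0.1 and Bowtie2 2.2.3, and no source used here gives the control or the threshold. The deposited fold enrichment (a ratio), −log10 p and −log10 q are the authors' values and only describe, rank or filter peaks; the deposited score column is the q column times 10 and was not used. Of 6472 KLF5, 41905 ATAC and 18155 H3K27ac peaks, 6433, 41825 and 18120 lay on chromosomes 1 to 19, X and Y.

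Regions were placed by the KLF5 summit against the starts of 21111 protein-coding genes. No genome was used, so the planned windows around all summits were replaced by RefSeq promoter windows and masked repeats and the alternatives in window length were not run; 29786 genes matched RefSeq by symbol and 2322 by synonym. The E17.5 and HFD counts were fitted separately in edgeR 4.0.16 under R 4.3.3 (TMM, filterByExpr, robust quasi-likelihood, Benjamini-Hochberg over all genes, threshold 0.05). Reads of no gene, 13.4 to 16.9% of each library, were left out. CPM are TMM-scaled within a set. At these depths 3 counts equal 0.0646 to 0.0943 CPM. Genes with near-identical copies or antisense partners are less certain, since no source used here gives the strand setting of the counting. Because no label says which animals a library came from, a p-value reflects spread among libraries, which may be technical. Same-numbered libraries did not deviate together at E17.5 (correlations 0.026, −0.102 and 0.176), and the HFD set has 2 pairs only, so numbers were not treated as pairs.

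The regions, gene lists, named genes and tests were chosen with earlier results of these data known. Named genes are those nearest to the 12 regions of highest KLF5 fold, every linked gene called at E17.5, the 8 largest changes among those called in the HFD set and, for each of 11 lists, up to 3 linked genes by KLF5 fold; all other genes, further list members included, were named after their values were seen. The overlap code was tested on simulated intervals and the fits on simulated counts. At a log2 change of 1 the fit recovered 93 of 100 genes at E17.5 and 22 of 100 in the HFD set. At 2 it recovered 98 and 89, with 11 and 26 false calls in the same runs, so some HFD calls may be false. Only genes above a cut on mean level were changed, and counts were drawn independently, with no effect shared within a library. Recovery of genes with few counts, or under such an effect, was not measured. Alternatives were DESeq2 1.42.0, RLE scaling, limma-voom (limma 3.58.1), no low-count filter, a replicate block, leaving out each library, and other overlap, height and distance limits. Some linked genes are not reported here.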

Additional observations from a re-analysis of the deposited data

Results flagged for a closer look

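For 8 of the linked genes named in the text, every library labelled Klf5-/- lay on one side of every Klf5+/- library at E17.5 and on the other side in the HFD set. Clic3, Spink5, Asah2 and Thy1 among them were named after their values were seen. Of all 14106 genes tested in both sets, 10.7% lay lower at E17.5 and higher in the HFD set without overlap. The other way round lay 9.29%, so the pattern is not particular to these genes. The difference between the sets was not tested, and the sets also differ in sorting, preparation and library kit, which cannot be told apart from it. The HFD log2 fold change (Klf5-/- over Klf5+/-) minus that at E17.5 was 2.19 for Krt1, 1.95 for Clic3, 1.59 for Tgm1, 1.58 for Spink5 and 1.54 for Asah2, all lower at E17.5 and higher in the HFD set. It was −2.62 for Thy1, −2.59 for Snx24 and −1.59 for S100a6, with the directions turned round. Of these effects, those of Krt1, Clic3, Thy1, Snx24 and S100a6 in the HFD set passed edgeR's test and none did at E17.5.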

How the results depend on the processing

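The number of regions was 540 with KLF5 peaks of −log10 q of at least 5, where their median fold was 4.25, and 1011 to 1613 under the other overlap and height limits. The share within 1 kb of a start was 13.5% with stricter H3K27ac peaks, 9.49% within 500 bp, 14.9% within 2500 bp and 15.2% with any RefSeq start, a setting chosen after seeing the data, as was the use of distal regions alone. At E17.5, called genes over all genes and linked genes numbered 458 and 43 with DESeq2, 237 and 22 without a low-count filter, and 42 and 1 (Aox4) with a replicate block; limma-voom called 8 in all. In the HFD set they numbered 2906 and 164, 2396 and 144, 1520 and 102, and with limma-voom 2025 and 111. With links within 10 kb 34 linked genes were called, out of a smaller linked set whose size is not given here. Leaving out 1 library gave 0 to 513 genes and 0 to 52 linked genes at E17.5, the single linked call without Klf5+/- number 3 being Phyhip, and 19 to 5389 and 0 to 267 in the HFD set. Of the 55 linked calls 53 remained under the block, 55 under DESeq2, limma-voom and without either library labelled Klf5-/-, and at most 1 without a Klf5+/- library. Where an arm kept 1 library, it was assumed to vary like the others. Under the block Gda and Lamb1 missed the threshold (adjusted p = 0.0540 and 0.0530), and Smpd3, Slc27a4, Tgm1 and Asah2 passed it in the HFD set (0.0256, 0.0462, 0.0213 and 0.0394). None of the fold changes given for named genes changed sign under these alternatives. With 1 library an assay, spread between peak lists is unknown.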
